A study of Mus musculus with 3 samples.

Results

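Negative feedback regulators of the extracellular signal-regulated kinase (ERK) pathway were examined in Hepa1c1c7 cells, a mouse hepatoma line, after transfection with an expression vector. The 10 genes were Dusp1, Dusp4, Dusp5, Dusp6, Spry1, Spry2, Spry4, Spred1, Spred2 and Phlda1. They were chosen by name as a list of feedback regulators, with earlier results of these data known, as were the other gene lists below. The probes of the 10 genes were found by matching the accession of each probe to a mouse gene symbol. All 10 were found on the array, with 13 probes, out of 22911 genes named in this way. The question was whether the output of these genes differed with the Mst1r vector, since Mst1r encodes a receptor tyrosine kinase.

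Cells were transfected with the empty vector pCMV6-Kan/Neo, with one that carried Mst1r coding sequence, or with one that carried Slpi, a secreted protease inhibitor. In each case 2 μg of vector was used and cells were cultured for 24 h, so the 3 groups shared the cell line, the transfection and the culture time. Each group was 1 RNA sample on 1 single-colour Agilent array, labelled from 100 ng of total RNA. No difference given here therefore has a replicate check, and no test between groups could be made. RNA came from the whole culture, so cells that took up no vector were included, and fewer cells of a kind cannot be told apart from less RNA per cell.

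Receptor tyrosine kinases switch on RAS, which passes the signal through RAF and MEK to ERK. ERK in turn raises the transcription of genes whose products shut the pathway off again. Dual-specificity phosphatases (DUSPs) remove phosphate from ERK and its relatives, Sprouty and Spred proteins act upstream between the receptor and RAF, and Phlda1 is an ERK-induced protein with a pleckstrin homology domain. In many cell types the transcripts of these genes are commonly used as a readout of ERK activity.

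Promoter sequence is shown for the 3 genes whose difference on the Mst1r vector array was largest, Dusp1, Dusp5 and Spry1. The lines below give the 250 bases before the start of each gene, 5′ to 3′ in the direction of transcription, from RefSeq (GRCm38.p6). Capitals mark a cyclic AMP response element (CRE, TGACGTCA) in Dusp1 and a pair of CArG boxes, the site bound by serum response factor, in Dusp5. Spry1 held none of the motifs searched and is printed in lower case.
Dusp1, chr17:26508473-26508722, - strand: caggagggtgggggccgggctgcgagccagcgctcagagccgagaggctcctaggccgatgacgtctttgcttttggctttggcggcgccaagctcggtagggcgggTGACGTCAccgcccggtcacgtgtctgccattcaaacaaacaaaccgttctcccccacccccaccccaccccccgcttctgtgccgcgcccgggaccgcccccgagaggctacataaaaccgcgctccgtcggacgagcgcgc
Dusp5, chr19:53528895-53529144, + strand: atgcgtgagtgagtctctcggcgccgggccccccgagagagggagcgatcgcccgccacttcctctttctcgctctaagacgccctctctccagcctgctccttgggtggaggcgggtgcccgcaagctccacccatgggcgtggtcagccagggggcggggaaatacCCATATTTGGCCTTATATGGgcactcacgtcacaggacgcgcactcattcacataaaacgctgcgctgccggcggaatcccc
Spry1, chr3:37639697-37639946, + strand: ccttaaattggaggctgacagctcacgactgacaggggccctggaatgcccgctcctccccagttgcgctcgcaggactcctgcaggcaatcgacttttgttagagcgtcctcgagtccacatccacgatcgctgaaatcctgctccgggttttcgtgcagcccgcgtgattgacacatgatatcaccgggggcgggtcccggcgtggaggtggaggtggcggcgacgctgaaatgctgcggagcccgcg

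The 5 motifs were searched on both strands in windows of 300 bases, 250 before and 50 after the start. The CRE of Dusp1 lay 143 to 136 bases before the start, and a CRE was present in 1.79% of the 32851 promoter windows. The CArG boxes of Dusp5 lay 82 to 73 and 72 to 63 bases before the start, and a CArG box was present in 1.63% of windows. The other motifs were the ETS site CCGGAAGT (3.89% of windows), the AP-1 site TGANTCA (7.81%) and the interferon response element (3.44%), none of which was found in the 7 feedback genes with a window. Of those 7 genes, only Dusp1 and Dusp5 held any of the motifs searched. Among 13 immediate early genes with a window, CArG boxes were found in Egr2 and Zfp36 and a CRE in Btg2. A match describes the letters of the window and is not evidence of a factor bound there.

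Between 46.7% and 48.5% of the 56605 probes were well above background, no spot was saturated, and the 75th percentile of the processed signal, to which each array was scaled, ran from 229 to 268. On these arrays the transfected genes gave no check of the labels. The Mst1r probe read 4.15 on the empty vector array, 4.08 with the Mst1r vector and 3.70 with the Slpi vector, not well above background on any of them. The brighter Slpi probe read 6459, 3843 and 6680, a log2 difference of 0.13 ± 0.13 between the Slpi and empty vectors. Whether either probe lies in the transfected coding sequence is not given in the sources used here, and the arrays are called by their labels. The study reported overexpression of Mst1r in transfected cells by real-time PCR, which is not analysed here. Of 9 hepatocyte or hepatoma markers, Alb, Afp, Apoa2 and Trf were well above background on all arrays, whereas Hnf4a, a defining transcription factor of hepatocytes, was so on none. Among other cell types, 2 of 4 macrophage markers (not Ptprc or Adgre1), 3 of 4 fibroblast markers and 1 of 3 endothelial markers (not Cdh5 or Kdr) were well above background on all arrays. Summed processed signals, not scaled between arrays, ran from 61402 to 76166 for hepatocyte markers and from 34279 to 47817 for fibroblast markers, lowest on the Mst1r vector array in both, from 3216 to 3679 for macrophage markers, highest on that array, and from 31.1 to 44.8 for endothelial markers. Single markers did not all follow the sums, since Alb read 5083 with empty vector and 6449 with the Mst1r vector. Their part in the values below was not tested.

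With the Mst1r vector, the feedback genes lay on both sides of empty vector. By their brightest probes, 5 were higher and 5 lower after scaling. With median scaling 6 were higher and 4 lower, and without scaling 3 were higher and 7 lower. Of the 9 with a signal over 50, 4 were higher after scaling, while 38.8% of all genes tested were above 0. The differences ran from -0.59 for Spry1 to 0.57 for Dusp5 on the log2 scale, with a median of 0.07 over all 10. Over the 9 with a signal over 50 the median was -0.015, beside -0.05 over the 12047 genes tested, which passed the same signal minimum. Spry1 was the only one of the 9 genes with a signal over 50 that was at least 1.5-fold apart, and it was lower, where 8.89% of the genes tested were at least 1.5-fold apart, 4.91% higher and 3.98% lower. Dusp1 and Dusp5 were the highest, at 1.46-fold and 1.48-fold. With the Slpi vector, 8 of the 10 genes were below empty vector (-0.26 to -0.0016), where 52.3% of all genes tested were above 0. None was at least 1.5-fold apart, beside 4.75% of 11963 genes (2.31% higher, 2.44% lower). In the lower rows of the array alone (129 to 384), that share over all genes was 0.83%. The side of empty vector on which the feedback genes lay also depends on scaling, since their median of -0.05 became 0.11 with median scaling. Errors printed after log2 differences are the technical error of a difference, from repeated spots within arrays, and cover no variation between cultures.

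**Figure D1:**
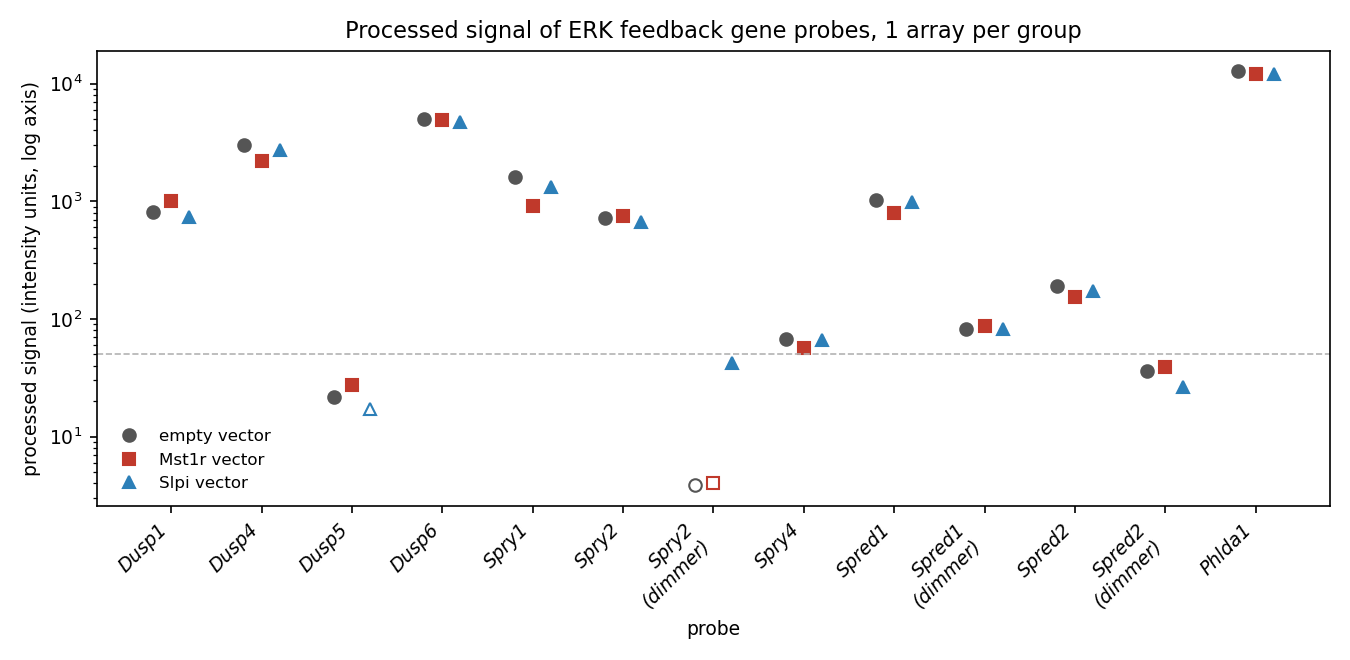
Processed signal (intensity units, log axis) of the 13 probes of the ERK feedback genes on the empty vector (circles), Mst1r vector (squares) and Slpi vector (triangles) arrays, 1 array each. Open symbols were not well above background, the dashed line is the signal minimum of 50, and heights of different probes are not comparable. Spry1 read 1619 with empty vector and 915 with the Mst1r vector, and the dimmer Spry2 probe read 42.6 on the Slpi vector array only.

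Dusp1 encodes a nuclear phosphatase that acts on p38, JNK and ERK, and it is itself an immediate early gene. Its processed signal was 807 with empty vector, 1002 with the Mst1r vector and 729 with the Slpi vector. The Mst1r vector array was the high one. After scaling, Dusp1 was higher with the Mst1r vector than with empty vector by 0.54 ± 0.14 (log2), and 94.7% of the genes tested had a smaller value. Among genes also well above background on all arrays, the 5th and 95th percentiles of that comparison were -0.43 and 0.46. Against the Slpi vector the Dusp1 difference was 0.61 ± 0.14, or 1.53-fold, and between the Slpi and empty vectors it was -0.07 ± 0.14. Under the 13 other ways of processing, the Mst1r to empty vector difference lay between 0.31 and 0.58.

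Dusp4 encodes another nuclear MAP kinase phosphatase. It read 3016 with empty vector, 2189 with the Mst1r vector and 2720 with the Slpi vector, the lowest on the Mst1r vector array. The scaled difference from empty vector was -0.23 ± 0.12 with the Mst1r vector and -0.07 ± 0.12 with the Slpi vector. Dusp4 thus stood on the opposite side of empty vector from Dusp1 on the Mst1r vector array. Under every processing that kept its probe, the Mst1r vector difference of Dusp4 was below 0, from -0.46 to -0.19.

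Dusp5, a nuclear phosphatase selective for ERK, was near the detection limit. Its signal was 21.7 with empty vector, 27.4 with the Mst1r vector and 17.2 with the Slpi vector, where it was not well above background. The scaled difference between the Mst1r and empty vectors was 0.57 ± 0.33, less than 2 errors. Between the Mst1r and Slpi vectors it was 0.83 ± 0.33, or 1.77-fold, after scaling to the 75th percentile. That fold was set against the dim Slpi vector reading itself, so it carries the same error. The difference was 0.67 without scaling and 0.29 with normexp background correction. The normexp setting added an offset of 50, more than Dusp5 read on any array, and such an offset makes log2 differences of dim probes smaller. The Slpi vector difference from empty vector, -0.26 ± 0.33, was smaller than its error and became 0.0064 with normexp. Since it was under the signal minimum of 50 on every array, Dusp5 is left out of the counts of genes apart.

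Dusp6, the cytoplasmic ERK phosphatase whose transcript is most often used as an ERK readout, differed little in signal. It read 4968 with empty vector, 4923 with the Mst1r vector and 4692 with the Slpi vector. Scaling put Dusp6 0.22 ± 0.13 higher with the Mst1r vector than with empty vector, but without scaling the difference was -0.01. The Slpi vector difference was -0.0044 ± 0.13.

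Spry1 was the feedback gene that stood lowest with the Mst1r vector. Sprouty proteins block the signal between receptor and RAF. The Spry1 signal was 1619 with empty vector, 915 with the Mst1r vector and 1319 with the Slpi vector, so both vectors gave a lower value than empty vector. The scaled differences were -0.59 ± 0.13 with the Mst1r vector, or 1.51-fold lower, and -0.22 ± 0.12 with the Slpi vector. Only 3.89% of the genes tested had a lower Mst1r vector value. Spry1 was lower with the Mst1r vector than with the Slpi vector as well (log2 difference -0.38 ± 0.13).

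The value of Spry1 sat just inside the 1.5-fold line. It was -0.56 when arrays were scaled to the 75th percentile of detected probes, to the median or by quantiles, and the gene was then not counted as apart, while its sign was kept under all alternatives that could be run, from -0.82 to -0.56. Its probe lies in row 51 of 384, in the upper rows of the array, where the Dusp4 and Dusp5 probes also lie. The Dusp1 probe lies in row 198, in the lower rows. In the lower rows alone, the share of genes at least 1.5-fold apart between the Mst1r and empty vectors was 4.99%, against 8.89% over the whole array.

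Spry2 stood on the other side of empty vector from its relative Spry1 on the Mst1r vector array. Its brighter probe read 726 with empty vector, 746 with the Mst1r vector and 668 with the Slpi vector. The scaled Mst1r vector difference was 0.27 ± 0.14, and it lay between 0.04 (without scaling) and 0.30 over the alternatives. With the Slpi vector it was -0.04 ± 0.14.

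The dimmer Spry2 probe gave a different picture. It read 3.87 with empty vector and 4.02 with the Mst1r vector, not well above background, but 42.6 with the Slpi vector. That is at least 2.38-fold above empty vector and at least 2.04-fold above the Mst1r vector. This probe lies in row 34. In the upper rows, 3.77% of the 6977 probes with a signal under 15 on both other arrays were at least as bright as this on the Slpi vector array (exact 95% interval 3.33 to 4.24). In the lower rows that share was 0.0650% of 18450 probes (0.0336 to 0.114). The part of array position in the reading was not tested, and the brighter probe of the same gene showed no such difference.

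Spry4 was dim. Its signal was 67.7 with empty vector, 57.1 with the Mst1r vector and 66.4 with the Slpi vector. The scaled differences of -0.015 ± 0.27 with the Mst1r vector and 0.05 ± 0.19 with the Slpi vector were smaller than the technical error.

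The Spred proteins, which bring the RAS inactivator neurofibromin to the membrane, were measured by a bright and a dim probe each. The brighter Spred1 probe read 1028 with empty vector, 799 with the Mst1r vector and 982 with the Slpi vector, a Mst1r vector difference of -0.13 ± 0.13. Its dimmer probe read 82.1, 86.6 and 82.9, a difference of 0.31 ± 0.19. The probes of Spred1 therefore disagreed in sign, and no direction is given for the gene.

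Spred2 showed the same disagreement. Its brighter probe read 191 with empty vector, 153 with the Mst1r vector and 173 with the Slpi vector, a Mst1r vector difference of -0.09 ± 0.19. The dimmer probe read 36.2, 39.2 and 26.6, a difference of 0.34 ± 0.33. With the Slpi vector the brighter probes of Spred1 and Spred2 differed from empty vector by 0.012 ± 0.13 and -0.06 ± 0.19.

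Phlda1, the remaining ERK-induced gene, was bright on all arrays. It read 12687 with empty vector, 12046 with the Mst1r vector and 12005 with the Slpi vector. The scaled Mst1r vector difference was 0.16 ± 0.13 and became -0.07 without scaling. The Slpi vector difference was -0.0016 ± 0.13.

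**Figure D2:**
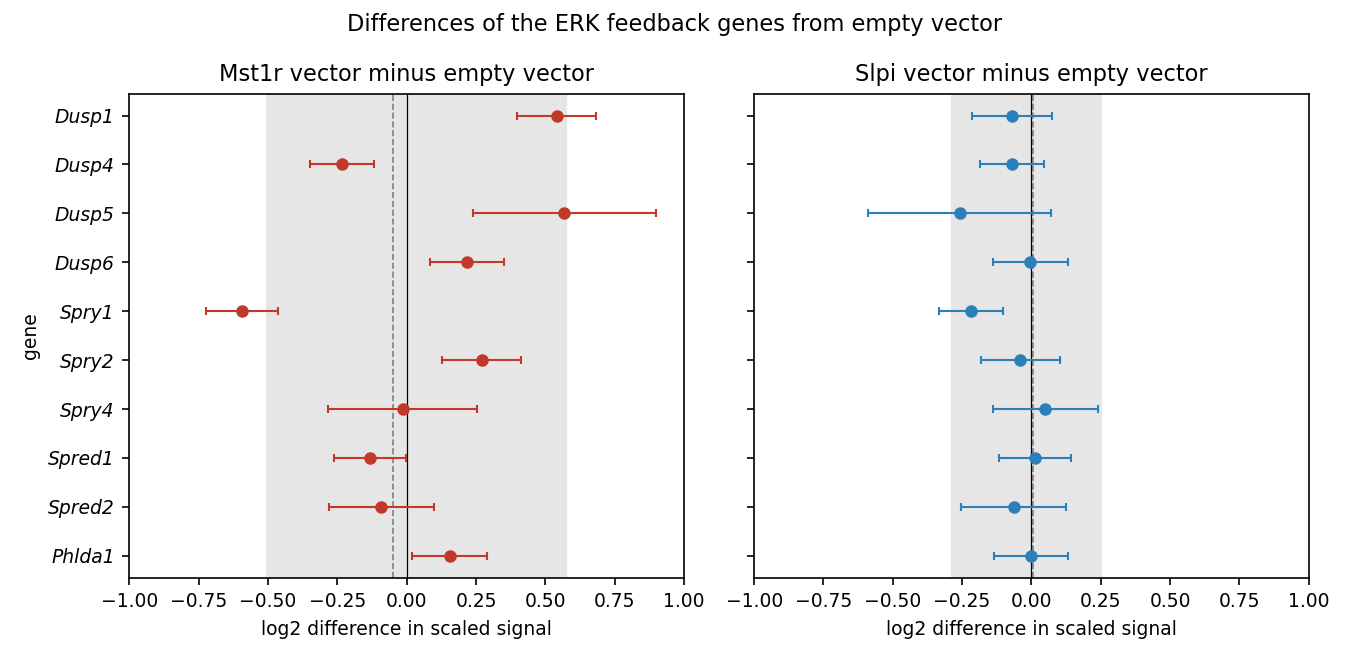
Log2 difference in scaled signal from empty vector for each ERK feedback gene, with the Mst1r vector (left) and the Slpi vector (right). Points are single differences between 1 array and 1 array, bars are the technical error between repeated spots, the grey band holds the 5th to 95th percentile of all genes tested and the dashed line is their median. On the left Spry1 lies below the band, which starts at -0.50, and Dusp1 and Dusp5 lie at its upper edge (0.57), while on the right all 10 genes lie within the band.

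None of the 9 genes was at least 2-fold apart between the Mst1r and empty vectors, where 5.39% of all genes were. Between the Mst1r and Slpi vectors, 1 of 9 (Dusp1, higher) was at least 1.5-fold apart, beside 8.82% of 11937 genes (4.94% higher, 3.88% lower), and that count became 0 with median scaling, no scaling or normexp. The empty vector array is shared by the comparisons of both vectors, which are therefore not independent.

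The scaling matters at this size of difference. Spike-in RNA added at labelling, which should be equal on all arrays, stood 0.10 (log2) above empty vector on the Mst1r vector array after scaling and 0.24 above it on the Slpi vector array. Over all genes tested the median Mst1r vector difference was -0.05 after scaling, -0.15 when scaled to the spike-ins and -0.28 without scaling. The lowest processed signal was 3.74 with empty vector and 3.73 with the Mst1r vector, so scaling lifted this floor on the Mst1r vector array. The Mst1r probe, not well above background, differed by 0.21 ± 0.34 after scaling. The part of this lift in the differences of dim probes, such as that of Dusp5, was not tested. Relative to the median of all genes, which a constant scaling does not move, Dusp1 stood at 0.59, Dusp5 at 0.62, Spry2 at 0.32, Dusp6 at 0.27 and Phlda1 at 0.21, and Dusp4 at -0.18 and Spry1 at -0.54.

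**Figure D3:**
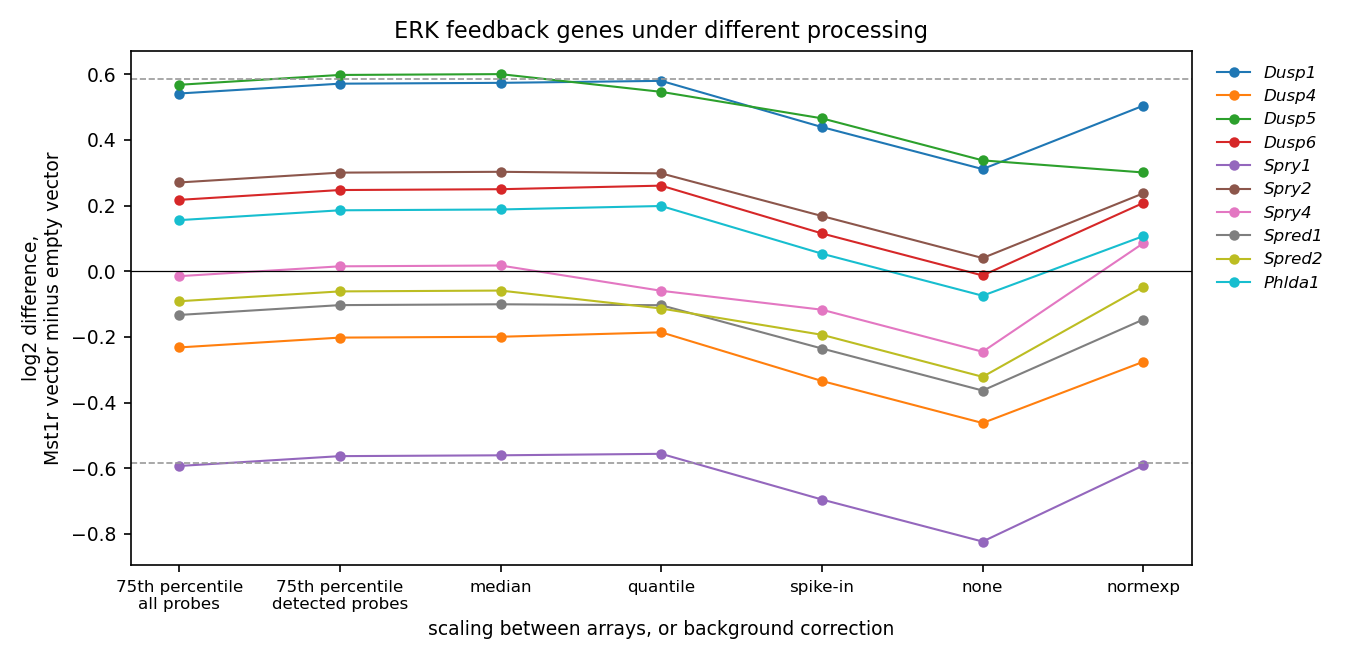
Log2 difference between the Mst1r and empty vectors for each ERK feedback gene under different scalings between arrays and under normexp background correction; dashed lines mark 1.5-fold. Spry1 stays lowest, between -0.82 and -0.56, and Dusp1 and Dusp5 stay highest, while Dusp6, Phlda1 and Spry4 cross 0 under at least 1 of the settings.

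Other phosphatases of MAP kinases were on both sides too with the Mst1r vector. Of 7 genes, 3 were higher and 4 lower, with a median of -0.08, and without scaling 1 was higher and 6 lower. Dusp10, which acts on JNK and p38, read 47.8 with empty vector, 65.4 with the Mst1r vector and 45.5 with the Slpi vector and was higher with the Mst1r vector by 0.68 ± 0.27. Dusp2, a nuclear phosphatase, read 55.9, 28.8 and 46.4 and was lower with the Mst1r vector (-0.73 ± 0.33). Both were close to the signal minimum. Dusp14 was bright and lower on both of its probes (-0.45 ± 0.12 and -0.43 ± 0.14).

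Among other inhibitors of receptor and RAS signalling, 9 genes had a signal over 50, with a median of -0.05. Spred3, the remaining Spred gene, read 34.0 with empty vector, 85.1 with the Mst1r vector and 35.7 with the Slpi vector, a Mst1r vector difference of 1.55 ± 0.27. Its other probe read 27.3, 30.7 and 29.0, a difference of 0.40 ± 0.33, so its probes had the same sign but not the same size. Il17rd, a membrane antagonist of receptor tyrosine kinase signalling also called Sef, was higher on both probes, by 0.67 ± 0.33 and 0.39 ± 0.33. Its signals with the Mst1r vector were 62.7 and 23.3, against 46.2 and 20.9 with empty vector. For both genes the probe with the larger difference lies in the upper rows of the array (row 94 for Spred3, row 26 for Il17rd). The other probes lie in rows 252 and 337, and the part of array position was not tested. Errfi1, an inhibitor of the epidermal growth factor receptor, differed by 0.16 ± 0.12. Lrig1, which lowers the level of the same receptor, was lower on both probes (-0.38 ± 0.13 and -0.43 ± 0.19).

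Immediate early genes, which are transcribed within minutes of ERK activation and of many other stimuli, were mostly higher with the Mst1r vector. Of 16 with a signal over 50, 13 were above 0, with a median of 0.46 (0.23 without scaling), and 6 were at least 1.5-fold higher, beside 38.8% above 0 and 4.91% at least 1.5-fold higher over all genes tested. Egr1, a zinc finger factor, read 790 with empty vector, 2530 with the Mst1r vector and 848 with the Slpi vector, a difference of 1.91 ± 0.13. Egr2, its relative, read 27.6, 101 and 25.9, a difference of 2.11 ± 0.27. Fos, a subunit of AP-1, read 160, 319 and 143, a difference of 1.22 ± 0.17. In each of these genes the Mst1r vector array was the high one and the other arrays lay close together. Zfp36, Atf3 and Fosb differed by 1.75, 1.67 and 0.60. By contrast, Ier3 differed by 0.34 ± 0.12 and Ier2 by 0.09 ± 0.14. The 3 genes below 0 were Nr4a1 (-0.18 ± 0.12), Myc (-0.02 ± 0.12) and Mcl1 (-0.0017 ± 0.13). The probes of Zfp36 and Atf3 lie in the upper rows of the array (2 and 28), those of Egr1, Egr2 and Fos in the lower rows (348, 182 and 253). With the Slpi vector the median of 15 immediate early genes was 0.07. None was 1.5-fold apart, beside 4.75% of all genes tested and 0.83% in the lower rows alone.

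Of 9 later targets of ERK and of ETS factors with a signal over 50, none was 1.5-fold apart with the Mst1r vector, beside 8.89% of all genes tested. Their median was 0.07 (-0.16 without scaling), with 5 above 0 and 4 below. Etv4 and Etv5, ETS factors of the growth factor response, differed by 0.07 ± 0.13 and -0.0028 ± 0.12. Ccnd1 (cyclin D1) read 20610, 17051 and 19091 and differed by -0.04 ± 0.08, and Epha2, an ephrin receptor, by 0.22 ± 0.13. Areg, a ligand of the epidermal growth factor receptor, was highest of this list at 0.55 ± 0.13. Fosl1 differed by 0.32 ± 0.12 and Hbegf by 0.28 ± 0.13.

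The components of the cascade itself were measured beside their inhibitors. Over all genes tested, 8.89% were at least 1.5-fold apart between the Mst1r and empty vectors, and the median was -0.05. Of 22 genes from RAS to ERK, 1 was at least 1.5-fold apart with the Mst1r vector, and the median was -0.11. That gene was Gab1, a docking protein of receptor tyrosine kinases, which read 179 with empty vector, 101 with the Mst1r vector and 125 with the Slpi vector and differed by -0.60 ± 0.19 and -0.44 ± 0.19. Of 9 receptor tyrosine kinases and ligands, Mst1, the ligand of Mst1r, was the only one at least 1.5-fold apart, at 104, 187 and 121 (1.08 ± 0.19 with the Mst1r vector, probe in row 41). The brighter probe of Met, the receptor related to Mst1r, differed by -0.39 ± 0.13 and the dimmer one by -0.010 ± 0.19. The 9 genes of the JNK and p38 cascade had a median of 0.0041 (-0.23 without scaling) and none was 1.5-fold apart.

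**Figure D4:**
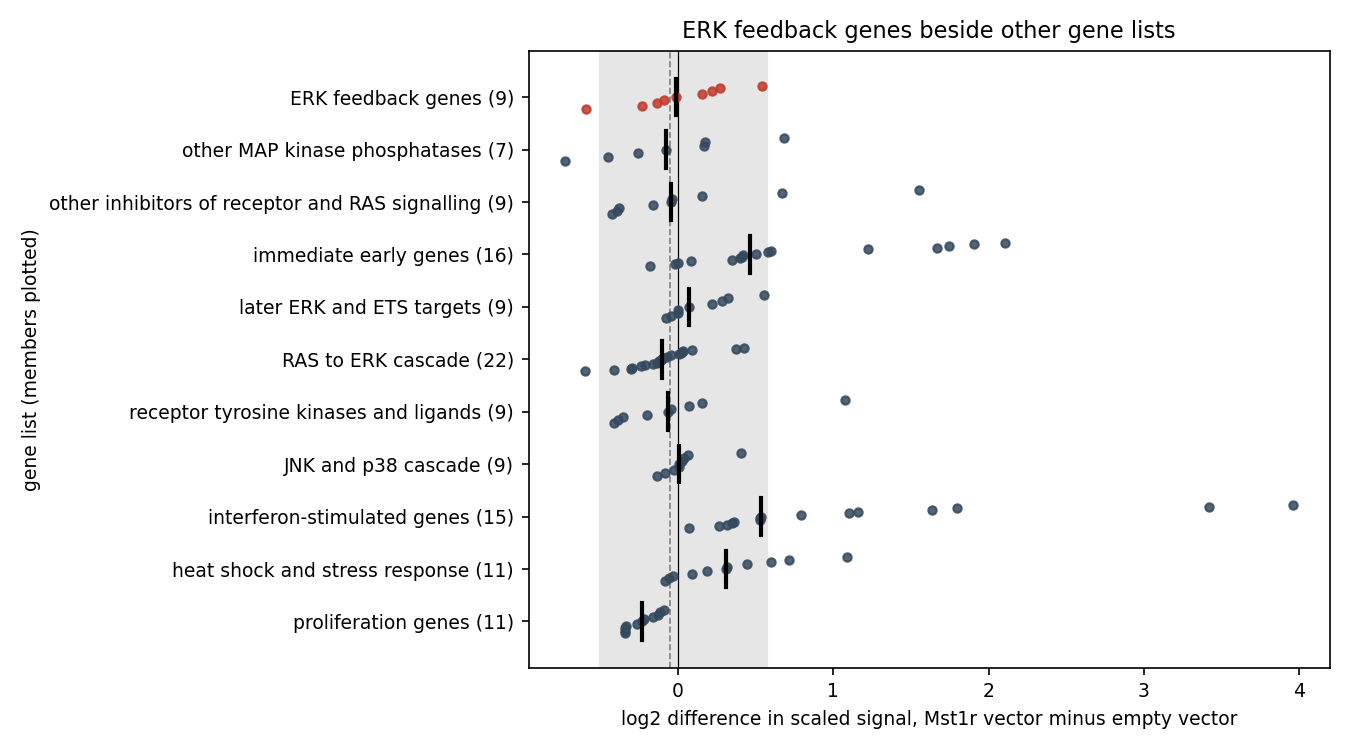
Log2 difference in scaled signal between the Mst1r and empty vectors for the ERK feedback genes (red) and other gene lists, members with a processed signal over 50 on the brighter array. Each point is a gene, black bars are list medians, the grey band holds the 5th to 95th percentile of all genes tested and the dashed line is their median. The feedback genes lie from -0.59 to 0.54, the immediate early genes reach 2.11 and the interferon-stimulated genes reach 3.96.

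Lists outside the pathway differed on the same Mst1r vector array. All 15 interferon-stimulated genes were above 0 (14 without scaling), with a median of 0.53, and 7 were at least 1.5-fold higher. Of the 7, Ifit1, Gbp2, Iigp1, Stat2 and Ifit3 had probes in the upper rows of the array (18, 32, 56, 77 and 126). Rsad2 and Cxcl10 had probes in the lower rows (130 and 363). The dimmer Stat2 probe (row 32) went the other way, from 64.5 with empty vector to 19.4 with the Mst1r vector. It was not well above background there. The dimmer Rsad2 probe differed by 1.29 ± 0.27. The part of array position was not tested. Among 11 genes of heat shock and stress responses the median was 0.31 (0.08 without scaling) and Trib3, Chac1 and Ddit3 were at least 1.5-fold higher. All 11 proliferation genes were below 0 under each of the scalings tried, with a median of -0.23. Over all genes tested, 38.8% were above 0 and 4.91% at least 1.5-fold higher. With the Slpi vector the medians of these lists were -0.14, 0.07 and -0.0050. The part of interferon, stress or proliferation differences in the values of Dusp1, Spry1 and the other feedback genes was not tested.

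The genes with a pattern most like that of Spry1, the feedback gene with the largest difference among those over the signal minimum, were found by the distance between the pairs of log2 differences from empty vector over the 3 arrays. They were Tmem38a, Ttll5, Gm41, Ddhd1 and Bloc1s5, at distances of 0.011 to 0.041. The technical errors of the Spry1 differences themselves were 0.13 and 0.12, larger than these distances, so the order among near genes is not resolved. Of 12457 genes compared, 38 lay within 0.1 of Spry1.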

How the data were processed

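Gene expression was measured in 3 groups of transfected Hepa1c1c7 cells, 1 array each. The deposited values were spot intensities, which the authors extracted with Agilent Feature Extraction (12.0.3.1 per the file headers and the submitters' processing notes), background-subtracted, linear and without scaling between arrays. The deposited intensity table of the series was an alternative.

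Processed signals were log2 transformed, averaged over unmarked spots and scaled to the 75th percentile of the 56605 non-control probes. RefSeq accessions named 32994 probes, and the brightest probe represented a gene. Genes with a signal over 50 on the brighter array were tested against a 1.5-fold threshold. The SD between spots of gene and control probes printed at least 10 times was taken by signal level and pooled over the 3 arrays. Between log2 signals of 3 and 14, each level rested on 10 to 27 pairs of probe and array. The technical error of a difference was the root of the summed squares of the SDs for its 2 signals. If only the brighter side was well above background, a fold called a bound was set against the higher of the dim signal and the lowest detected signal. Such a bound leaves out the technical error. Precision is limited by the number of arrays, and place on the single slide cannot be separated from group.

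Genes named were the feedback genes, up to 3 highest and 3 lowest detected genes of each list, and Egr1, Fos, Etv4, Etv5, Ccnd1, Epha2 and Ier3. Atf3, Fosb, Ier2 and Hbegf were named after their values were seen. The value of 1 hepatocyte marker is not reported here. The members and the 10 other lists were chosen with earlier results of these data known. Python 3.11.15, R 4.3.3 and limma 3.58.1 (normexp, on median spot intensity, with an offset of 50) were used, and the calculation was tested on simulated data.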

Additional observations from a re-analysis of the deposited data

Results flagged for a closer look

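The dimmer Spry2 probe stood out because it carried a signal on the Slpi vector array that the comparison of genes did not use. It read 42.6 there, against 3.87 with empty vector, where it was not well above background. The difference between groups was not tested, since each was a single array.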

How the results depend on the processing

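With 1 array per group, leaving out a replicate was not possible. No paired analysis was possible because each group has a single array. The count of feedback genes at least 1.5-fold apart between the Mst1r and empty vectors, 1 (Spry1), became 0 when scaled to the 75th percentile of detected probes, to the median or by quantiles, and 0 in the lower rows alone, where the Spry1 probe is absent. Between the Slpi and empty vectors the count of 0 became 1 with the mean of the probes of a gene (Spry2). Between the Mst1r and Slpi vectors the count of 1 became 0 with median scaling, no scaling or normexp, and 2 with the mean of probes or with no signal minimum. The median difference of the 10 genes moved from 0.07 to -0.16 without scaling between the Mst1r and empty vectors, from -0.05 to 0.11 with median scaling and -0.29 with spike-in scaling between the Slpi and empty vectors, and from 0.06 to -0.087 without scaling between the Mst1r and Slpi vectors. The cause was not tested beyond the construction of each alternative. Of 378 values of single genes under 13 alternatives, 332 moved by less than the technical error and 46 by more. Part of the 332 was fixed in advance. Keeping marked spots could not move these values, since no probe of the feedback genes was marked. Dropping the signal minimum changes counts only. In the Mst1r to empty vector comparison, Dusp1, Dusp4, Dusp5, Spry1 and Spry2 kept their sign throughout. Dusp6 and Phlda1 changed sign without scaling, Spred1 and Spred2 with the mean of their probes, and Spry4 under median scaling, among others. Dim probes such as Dusp5 and Spry4 are limited by signal over background.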
